A study of Homo sapiens with 36 samples.

Results

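The miR-106b-25 cluster is a group of 3 microRNA (miRNA) hairpins that lie together in an intron of MCM7, a gene for a subunit of the helicase that unwinds DNA at replication. Its members here are the 6 mature strands of those hairpins, hsa-miR-106b-5p, hsa-miR-106b-3p, hsa-miR-93-5p, hsa-miR-93-3p, hsa-miR-25-3p and hsa-miR-25-5p. They were taken by name from the 1508 miRNAs of the count table, and all 6 were among the 360 miRNAs that passed the filter on low counts. They were followed through all 18 groups of a small RNA sequencing study of senescence in WI-38 cells, a diploid strain of normal human lung fibroblasts.

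Ctrl was untreated, proliferating WI-38 cells, labelled as young. In plasma membrane damage-dependent senescence (PMD-Sen), a detergent, sodium dodecyl sulphate (SDS), was present at 0.0095% over 24 hours. In DNA damage response-dependent senescence (DDR-Sen), doxorubicin (DXR), a topoisomerase poison, was present at 250 nM over the same time. Each treatment was followed by washout, and harvests were made at 8 times: D0 to D4 daily, then D6, D8 and D16. By the authors' account, D0 cells were taken at the end of the 24 hours of treatment, before washout. Later days are counted from washout. Replicative senescence (RS) was reached by serial passage to a population doubling level of 54 to 56. Each of the 18 groups had 2 libraries, so all values below have n = 2 per group unless another n is given. The labels name the 2 as biological replicates, and the p-values of comparisons of groups measure the spread between them. All groups came from 1 cell strain.

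A miRNA hairpin is cut by Drosha and Dicer into a duplex, of which the strand kept in an Argonaute protein (the guide) represses mRNAs that pair with its seed, while the other (the passenger) is mostly lost. miR-106b-5p and miR-93-5p belong to the miR-17 family, whose known targets include the cyclin-dependent kinase inhibitor CDKN1A (p21), and miR-25-3p belongs to the miR-92 family, whose known targets include CDKN1C (p57) and the pro-apoptotic BCL2L11 (BIM). MCM7 is transcribed under the control of E2F factors in cycling cells, and the cluster is known to be made from its transcript. The mRNA of MCM7 was not analysed here.

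The mature sequences are shown because the seed decides which other miRNAs of these libraries can act on the same targets. They are from RefSeq (GRCh38.p14), 5′ to 3′, with the seed (bases 2 to 8) in capitals, and 6 of 6 members matched that table. The first 3 lines are the guides, the next 3 the opposite strands, and the last 3 relatives with the same seeds, from the miR-17-92 cluster on chromosome 13.
miR-106b-5p: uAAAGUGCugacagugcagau
miR-93-5p: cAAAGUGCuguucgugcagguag
miR-25-3p: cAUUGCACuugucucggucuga
miR-106b-3p: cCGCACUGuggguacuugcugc
miR-93-3p: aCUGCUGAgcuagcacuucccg
miR-25-5p: aGGCGGAGacuugggcaauug
miR-17-5p: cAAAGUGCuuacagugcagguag
miR-20a-5p: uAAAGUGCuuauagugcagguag
miR-92a-3p: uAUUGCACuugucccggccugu
The seed of miR-106b-5p and miR-93-5p was the same, and 7 other mature miRNAs of the RefSeq table shared it with each of them. That of miR-25-3p was shared with 5 others, and those of miR-106b-3p, miR-93-3p and miR-25-5p with 0. Counted base by base from the 5′ end, miR-106b-5p differed from miR-17-5p and from miR-20a-5p at 3 of 21 positions, and miR-25-3p from miR-92a-3p at 4 of 22, so reads of full length can be told apart.

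In GRCh38, MIR106B lies at chr7:100093993-100094074, MIR93 at chr7:100093768-100093847 and MIR25 at chr7:100093560-100093643, all on the minus strand. All 3 fall in intron 13 of the 15-exon MCM7 transcript in GENCODE, which spans 771 bases, and the cluster takes up 515 of them, with 145 bases between MIR106B and MIR93 and 124 between MIR93 and MIR25. The hairpins of MIR106B and MIR25 are printed to show where the guide sits, with both mature strands in capitals.
MIR106B: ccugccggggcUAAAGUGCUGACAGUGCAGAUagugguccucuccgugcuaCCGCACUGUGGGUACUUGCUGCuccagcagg
MIR25: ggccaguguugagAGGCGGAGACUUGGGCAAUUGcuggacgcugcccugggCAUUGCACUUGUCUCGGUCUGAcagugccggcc
miR-106b-5p, by background the guide of MIR106B, is the strand nearer the 5′ end, whereas the guide of MIR25, miR-25-3p, is the one nearer the 3′ end. In these libraries reads did not mark out a guide for MIR106B, since miR-106b-3p gave a median of 53.3% of its reads.

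Libraries held 81668 to 1933435 miRNA counts (median 376989), with the fewest in the SDS D0 libraries and the most in a SDS D16 library. The 6 members together gave 0.143% to 0.594% of a library, and miR-93-5p alone gave 65.3% to 79.2% of the members' counts. Levels below are counts scaled to a common library size (CPM) after TMM scaling, and differences are log2 fold changes ± SE from edgeR's quasi-likelihood test fitted on all 36 libraries, with p-values adjusted by Benjamini-Hochberg over the 360 miRNAs. A member is called higher or lower where the adjusted p is below 0.05. A CPM is a share of the miRNA pool, so fewer copies per cell and more of other miRNAs cannot be told apart. Ligation and amplification also differ between sequences, so levels of different members compare reads, not molecules.

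The share of the library taken by the cluster was highest in Ctrl, at 0.594% and 0.588%, and lowest in RS, at 0.154% and 0.143%. After SDS it was 0.397% and 0.484% at D0 and 0.328% and 0.287% at D16. After DXR it was 0.487% and 0.475% at D0 and 0.253% and 0.222% at D16. Every treated or RS library was below both Ctrl libraries in this share.

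**Figure D1:**
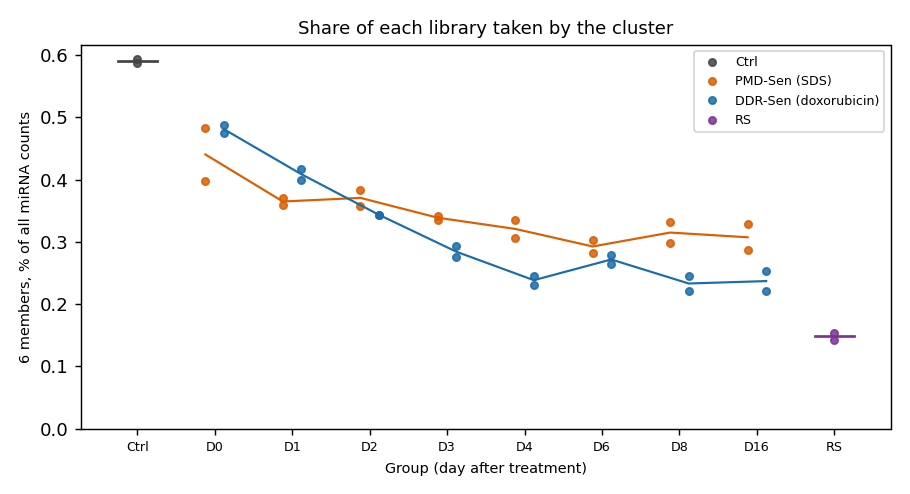
Share of all miRNA counts of a library taken by the 6 members (y, percent) by group (x, Ctrl, D0 to D16 and RS). Points are single libraries and lines join or mark the mean of 2. Ctrl libraries lie at 0.594% and 0.588%, and RS libraries, the lowest, at 0.154% and 0.143%.

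The guide miR-93-5p, by far the most read member, fell in each kind of senescence. Its level was 4353 and 4162 CPM in Ctrl. In RS it was 1128 and 1051 CPM, a log2 fold change of -1.97 ± 0.16 (3.91-fold lower, adjusted p = 4.94e-10). At SDS D16 it was 2416 and 2049 CPM, a log2 fold change of -0.93 ± 0.16 (1.90-fold lower, adjusted p = 0.000438), and at DXR D16 1980 and 1540 CPM, a log2 fold change of -1.27 ± 0.16 (2.42-fold lower, adjusted p = 1.81e-06). In all 17 groups both libraries were below both Ctrl libraries.

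The early days of miR-93-5p are given for each inducer in turn. After SDS it was 2766 and 2876 CPM at D0, 2731 and 2439 CPM at D1, 2727 and 2577 CPM at D2 and 2467 and 2443 CPM at D3. After DXR it was 4005 and 3493 CPM at D0 and 3216 and 3469 CPM at D1, then 3006 and 2806 CPM at D2 and 2227 and 2194 CPM at D3. It passed the test against Ctrl at D1 after SDS (log2 fold change -0.72 ± 0.16, adjusted p = 0.0133) and at every later SDS time, and at D3 after DXR (-0.94 ± 0.16, adjusted p = 0.000585) and at every later DXR time. At SDS D0 the value was -0.59 ± 0.17 (adjusted p = 0.093) and at DXR D0 -0.18 ± 0.16 (adjusted p = 0.757). Set directly against each other, SDS D0 and DXR D0 differed by -0.41 ± 0.17 (adjusted p = 0.263), and the D1 groups by -0.37 ± 0.16 (adjusted p = 0.192), neither of which was called. From D4 on, levels were 1955 to 2416 CPM after SDS and 1540 to 2164 CPM after DXR. Leaving out any 1 of the 4 libraries of a comparison ended the call of miR-93-5p at SDS D1, D2 and D3 (adjusted p up to 0.133, 0.193 and 0.281), and leaving out the second SDS D8 library ended that at SDS D8 (-0.73, adjusted p = 0.0569). Its other 9 calls were kept without any 1 library.

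The guide miR-25-3p, which has the seed of the miR-92 family, was at 790.6 and 755.1 CPM in Ctrl and at 217.1 and 239.9 CPM in RS. The RS log2 fold change was -1.75 ± 0.25 (3.37-fold lower, adjusted p = 8.46e-06). It was also called lower at SDS D6, where it had 387.4 and 306.9 CPM (-1.15 ± 0.25, adjusted p = 0.00524), at DXR D8 with 460.5 and 415.3 CPM (-0.82 ± 0.25, adjusted p = 0.0279) and at DXR D16 with 373.3 and 358.7 CPM (-1.08 ± 0.25, adjusted p = 0.00256). At SDS D16 the libraries had 592.6 and 385.2 CPM and the log2 fold change of -0.65 ± 0.25 was not called (adjusted p = 0.0671). Without the first of these SDS D16 libraries, the deepest of the study, the value was -1.003 and the adjusted p = 0.0421. The calls at DXR D16 and in RS were kept without any 1 library of the comparison. That at DXR D8 was lost without any 1 of its 4 libraries (adjusted p up to 0.175), and that at SDS D6 without either Ctrl library (adjusted p = 0.0506 and 0.0505) or without the second SDS D6 library (-0.99, adjusted p = 0.114). The SDS D0 libraries lay far apart, at 606.5 and 1092 CPM, around the Ctrl level.

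The guide miR-106b-5p had few counts, 6 to 465 in a library, and its libraries lay further apart. Ctrl had 223.4 and 226 CPM and RS 26.2 and 83.7 CPM, a log2 fold change of -1.97 ± 0.47 (3.92-fold lower, adjusted p = 0.00176). RS was the only group of 17 in which it was called, and it was -3.22 there without the second RS library and -1.42 without the first, called in both cases. With the study's thresholds (an unadjusted p below 0.05 and a log2 fold change beyond 1) put on edgeR's values, it was lower in 5 groups. These were RS, SDS D1 (-1.19), SDS D4 (-1.21), SDS D8 (-1.12) and DXR D8 (-1.32, adjusted p = 0.053). The authors, who put the thresholds on DESeq2's Wald test, listed miR-106b-5p as lower at D4 and D8 of both PMD-Sen and DDR-Sen. At DXR D4 edgeR gave it -0.98 ± 0.46, short of the fold change limit. At SDS D16 it had 253.1 and 167.3 CPM, with 1 library above and 1 below Ctrl (-0.08 ± 0.43, adjusted p = 0.909), and at DXR D16 111.5 and 143.9 CPM (-0.81 ± 0.44, adjusted p = 0.19). At SDS D1 the libraries had 146.5 and 37.7 CPM, the second from 6 counts. The fitted value was below 0 in 17 of 17 groups.

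**Figure D2:**
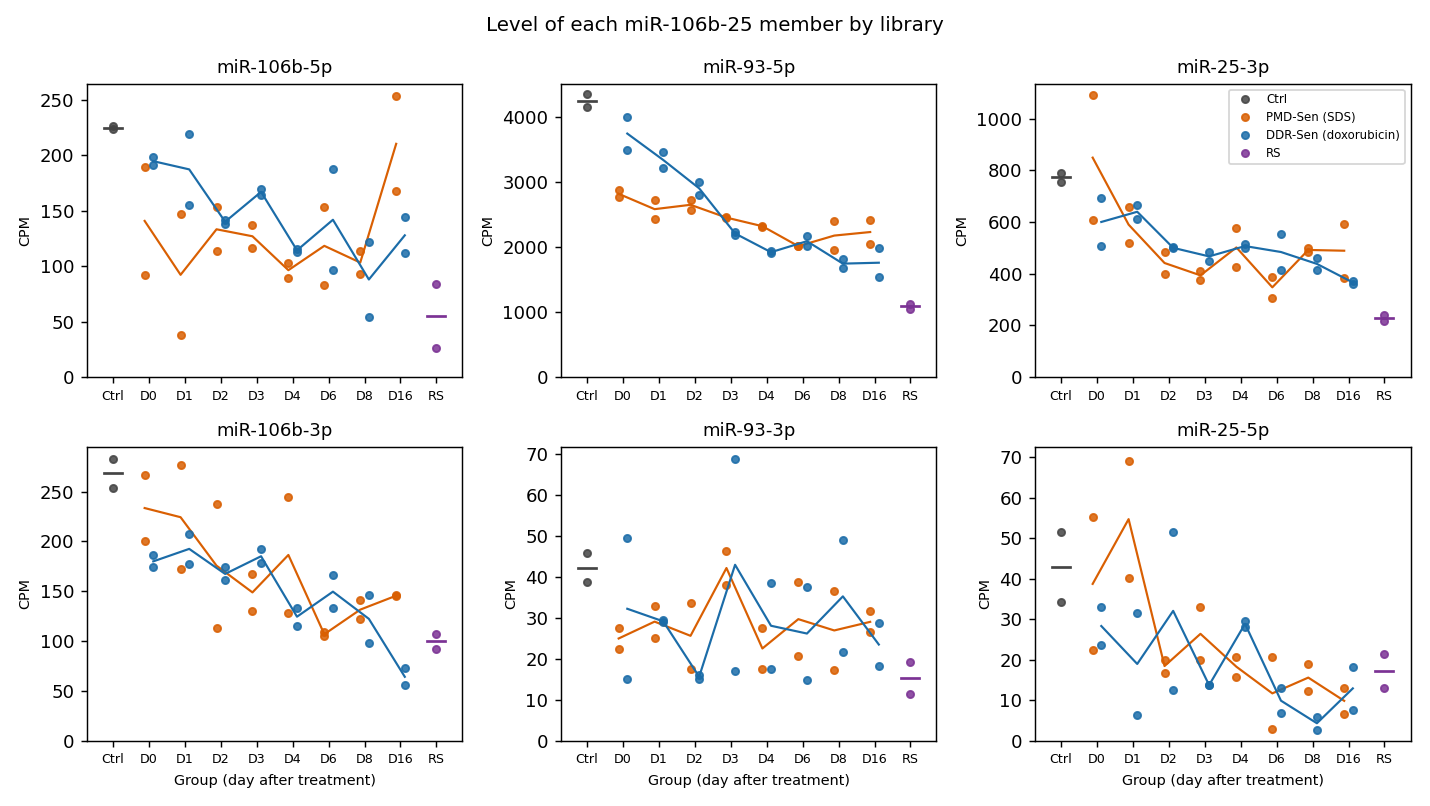
Level of each member (y, CPM on a linear axis from 0) by group (x, Ctrl, D0 to D16 and RS), with guides in the upper row and their opposite strands in the lower. Points are single libraries and lines join or mark the mean of 2. The miR-93-5p libraries run from 4353 CPM in Ctrl to 1051 CPM in RS with close pairs, while pairs of miR-93-3p and miR-25-5p lie far apart.

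The strand opposite miR-106b-5p, miR-106b-3p, was read about as often as its partner. It had 253.5 and 283.2 CPM in Ctrl, 145.8 and 145.3 CPM at SDS D16, 72.6 and 55.6 CPM at DXR D16 and 107.4 and 91.8 CPM in RS. Both DXR D16 libraries were below both RS libraries, but the difference of -0.64 ± 0.35 was not called (adjusted p = 0.406). The log2 fold change was -2.07 ± 0.35 at DXR D16 (4.21-fold lower, adjusted p = 6.4e-05) and -1.44 ± 0.33 in RS (2.71-fold lower, adjusted p = 0.0015). It was also called lower at DXR D4 (-1.11 ± 0.34, adjusted p = 0.0425), DXR D8 (-1.15 ± 0.33, adjusted p = 0.0198), SDS D6 (-1.33 ± 0.33, adjusted p = 0.0126) and SDS D8 (-1.03 ± 0.32, adjusted p = 0.0395). At SDS D16 it was not called (-0.88 ± 0.32, adjusted p = 0.0536). The calls at DXR D16 and in RS were kept without any 1 library of the comparison. Those at DXR D4, SDS D6 and SDS D8 were lost without any 1 of the 4 libraries (adjusted p up to 0.227, 0.114 and 0.229), and that at DXR D8 without either Ctrl library (adjusted p = 0.0692 and 0.127) or the first DXR D8 library (-0.80, adjusted p = 0.271).

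The passengers miR-93-3p and miR-25-5p were near the limit of these libraries. miR-93-3p had 2 to 58 counts in a library and 3 or fewer in 2 libraries, with 38.7 and 45.8 CPM in Ctrl and 19.1 and 11.3 CPM in RS (-1.51 ± 0.68, adjusted p = 0.106), and it was called in 0 of 17 groups. For miR-25-5p there were 1 to 24 counts in a library and 3 or fewer in 7 libraries, with 51.6 and 34.3 CPM in Ctrl and 21.5 and 12.9 CPM in RS (-1.32 ± 0.73, adjusted p = 0.204). It was called lower at DXR D8 alone, where the libraries held 3 counts and 1 count (-3.15 ± 1.01, adjusted p = 0.019), a fitted value that depends on the prior count at such depth, and the call was lost without the first Ctrl library (adjusted p = 0.104) or either DXR D8 library (adjusted p = 0.0958 and 0.13). The 95% intervals of the RS values were -2.90 to -0.12 for miR-93-3p and -2.81 to 0.17 for miR-25-5p, both of which hold the RS value of miR-93-5p.

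Over the 17 groups and 6 members, 102 comparisons with Ctrl, 25 were called lower and 0 higher, where 3.5% of comparisons of all tested miRNAs were called lower and 3.66% higher. miR-93-5p gave 13 of the 25, miR-106b-3p 6, miR-25-3p 4, and miR-106b-5p and miR-25-5p 1 each. The fitted value was below 0 in 100 of 102, against 49.2% over all tested miRNAs. The study's own thresholds, an unadjusted p below 0.05 and a log2 fold change beyond 1, were also put on edgeR's values. With them 27 were lower and 0 higher, where 5.88% of all comparisons were lower. All 17 groups were set against the same 2 Ctrl libraries, so these counts are not independent. Without the first Ctrl library 15 were called lower and without the second 16.

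The number of members called lower is given for each group beside the share of all tested miRNAs. After SDS it was 0 of 6 at D0 (0.278% of the 360 tested miRNAs were called lower there), 1 at D1 (1.39%), 1 at D2 (1.39%), 1 at D3 (0.278%), 1 at D4 (1.94%), 3 at D6 (3.33%), 2 at D8 (4.72%) and 1 at D16 (7.78%). After DXR it was 0 at D0 (0%), 0 at D1 (0.278%), 0 at D2 (0%), 1 at D3 (1.94%), 2 at D4 (1.67%), 1 at D6 (4.72%), 4 at D8 (5.83%) and 3 at D16 (11.7%). In RS it was 4 (12.2%). The median log2 fold change of the 6 members was -0.77 at SDS D16, -1.18 at DXR D16 and -1.63 in RS, beside medians of 0.05, -0.03 and 0.12 over all tested miRNAs. These counts do not rank the days. At SDS D6, 2 of the 3 calls, and at DXR D8, 3 of the 4, were lost on leaving out 1 library, whereas all 3 at DXR D16 were kept. With the size factors of DESeq2 in place of TMM, 4 members and not 1 were called lower at SDS D16.

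**Figure D3:**
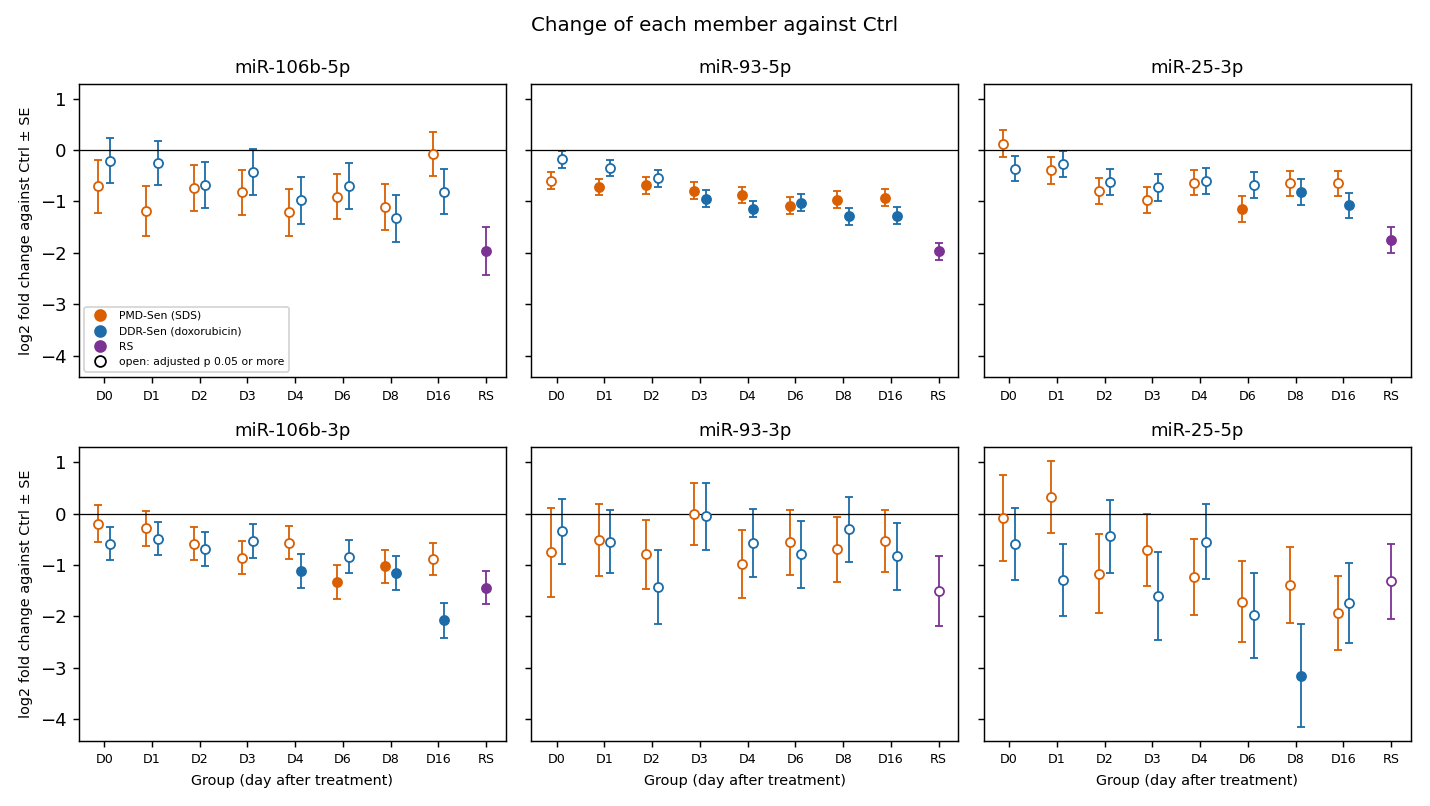
Log2 fold change of each member against Ctrl (y, with bars of 1 SE from edgeR) by group (x). Filled points have an adjusted p below 0.05 and open ones do not. All but 2 of the 102 points lie below 0, and those of miR-93-5p have the shortest bars.

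The late times (D6, D8 and D16) were set against the early ones (D1, D2 and D3) within each series, which uses no Ctrl library. After DXR, miR-93-5p fell further by 0.58 ± 0.09 on the log2 scale (adjusted p = 0.000109) and miR-106b-3p by 0.78 ± 0.19 (adjusted p = 0.00518), so 2 of 6 members were lower where 8.33% of tested miRNAs were. After SDS 3 of 6 were lower where 15.8% of tested miRNAs were, namely miR-93-5p by 0.26 ± 0.09 (adjusted p = 0.0368), miR-106b-3p by 0.50 ± 0.19 (adjusted p = 0.0456) and miR-25-5p by 1.16 ± 0.44 (adjusted p = 0.0441). These SDS calls were at the edge of the threshold. The count was 2 without the first library of SDS D1, D3 or D16, 0 or 1 without any other of the 12 SDS libraries, and 0 when only the libraries of the comparison were fitted. miR-93-5p had an adjusted p = 0.285 without the second SDS D8 library. The guides miR-25-3p and miR-106b-5p were called in neither series.

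The level of each member was set against the other inducer directly. Over D1 to D16, 0 of 6 members differed between SDS and DXR at an adjusted p below 0.05, nor at an unadjusted p below 0.05, where 20% of all tested miRNAs differed. The SDS minus DXR difference was 0.08 for miR-93-5p (95% interval -0.05 to 0.20), -0.06 for miR-25-3p (-0.26 to 0.13), 0.19 for miR-106b-3p (-0.06 to 0.45) and -0.13 for miR-106b-5p (-0.48 to 0.23). When libraries were scaled to total counts, miR-93-5p (0.25, adjusted p = 0.00212) and miR-106b-3p (0.36, adjusted p = 0.0274) were higher after SDS. At D16 alone 0 of 6 were called (0.556% of all tested), with miR-106b-3p 1.19 ± 0.34 higher after SDS (adjusted p = 0.136, unadjusted p = 0.00151). The test of whether the late minus early change differed between inducers called 0 of 6 (3.61% of all tested), with 1 at an unadjusted p below 0.05, miR-93-5p (0.32 ± 0.13, adjusted p = 0.138). DESeq2's Wald test put that member past the threshold (0.33, adjusted p = 0.0299).

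The guides were also compared between the D16 groups and RS. SDS D16 was higher than RS for miR-106b-5p (1.89 ± 0.45, adjusted p = 0.00702), miR-25-3p (1.11 ± 0.25, adjusted p = 0.00487) and miR-93-5p (1.04 ± 0.16, adjusted p = 0.00025), 3 of 6 members where 6.11% of tested miRNAs were higher. DXR D16 was higher than RS for miR-93-5p (0.69 ± 0.17, adjusted p = 0.0124), 1 of 6 where 1.94% were higher. Both comparisons use the same 2 RS libraries. Their counts over all tested miRNAs gave a chi-square per degree of freedom of 106, where the other pairs had 4.31 to 53.1. That value grows with depth, so it does not rank the pairs by their spread. For miR-93-5p the RS pair was close, as given above, while for miR-106b-5p it was not. The miR-93-5p call at SDS D16 was kept without any 1 of the 4 libraries. Without the first RS library those of miR-25-3p (1.04, adjusted p = 0.0607), miR-106b-5p (1.35, adjusted p = 0.161) and, at DXR D16, miR-93-5p (0.74, adjusted p = 0.0615) were lost. Without the first SDS D16 library miR-25-3p (0.75, adjusted p = 0.221) and miR-106b-5p (1.55, adjusted p = 0.175) were lost, and without the first DXR D16 library miR-93-5p (0.60, adjusted p = 0.156).

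Strands of the same hairpin were also compared within each library, which takes out depth and scaling. miR-106b-3p made up 27.9% to 88% of the reads of its hairpin (median 53.3%), miR-25-5p 0.649% to 9.48% (median 3.81%) and miR-93-3p 0.428% to 3.04% (median 1.07%). In Ctrl the share of miR-106b-3p was 53.2% (Wilson 95% interval 43.9% to 62.2%) and 55.6% (48.3% to 62.7%), and in RS 80.4% (68.2% to 88.7%) and 52.3% (43% to 61.4%). At D16 it was 36.6% and 46.5% after SDS and 39.4% and 27.9% after DXR, all below both Ctrl libraries. At D8 it was 55.4% and 56.8% after SDS and 44.6% and 73% after DXR, so D8 did not share that order. The late minus early log2 ratio of miR-106b-3p to miR-106b-5p did not pass the two-sided exact permutation test after SDS (-0.76, p = 0.11, adjusted p = 0.26) or DXR (-0.25, p = 0.576, adjusted p = 0.701). Intervals cover counting error only. The share of miR-25-5p was 6.12% and 4.35% in Ctrl, 2.16% and 1.69% at SDS D16, 4.64% and 2.09% at DXR D16 and 9% and 5.1% in RS.

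**Figure D4:**
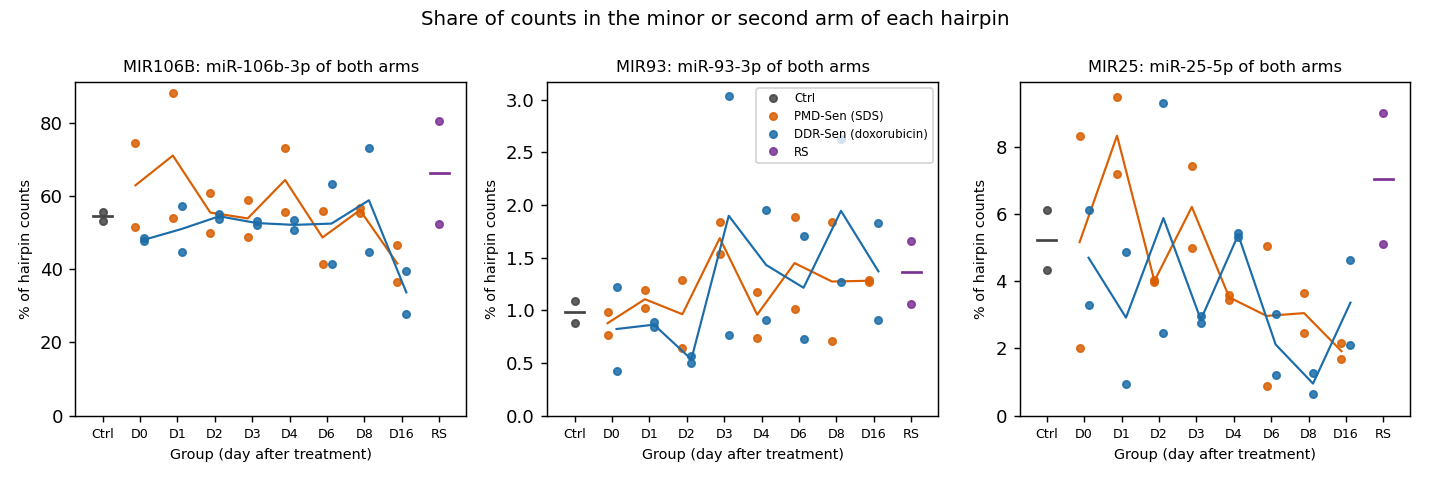
Share of a hairpin's counts (y, percent from 0) given by miR-106b-3p, miR-93-3p and miR-25-5p, by group (x). Points are single libraries and lines join or mark the mean of 2. MIR106B is read from both strands, at 27.9% to 88% from the 3p strand, while MIR93 and MIR25 are read almost wholly from the guide.

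Log2 ratios of 14 pairs of miRNAs were tested between late and early libraries of each series by a two-sided exact permutation test, 6 against 6 libraries, with 28 tests in all. Each 6 are the libraries of 3 days, so the spread in this test also holds differences between days. None of the 28 had an adjusted p below 0.05, and 9 had an unadjusted exact p below 0.05. The ratio of miR-25-5p to miR-25-3p was 1.30 lower at late times after SDS (exact permutation p = 0.0108, adjusted p = 0.0909). After DXR the same difference was -0.72 (exact permutation p = 0.247). The ratios among the 3 guides moved by -0.26 to 0.56, and their exact permutation p lay between 0.0368 and 0.905.

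The relatives of the guides in the miR-17-92 cluster were read beside them. That cluster, transcribed from its own locus and known as a growth-promoting one, had 7 tested strands, of which 5 were lower at SDS D16 (7.78% of all tested miRNAs), 6 at DXR D16 (11.7%) and 6 in RS (12.2%), with medians of -1.22, -2.35 and -2.70. miR-17-5p, which shares its seed with miR-93-5p, went from 447.2 CPM in Ctrl to 153.5 CPM at SDS D16, 87.0 CPM at DXR D16 and 69.7 CPM in RS (means of 2 libraries), and its RS log2 fold change was -2.70 ± 0.34 (adjusted p = 8.93e-07). miR-20a-5p changed in RS by -3.37 ± 0.41 (adjusted p = 1.88e-07). miR-92a-3p, which has the seed of miR-25-3p, went from 21900 CPM in Ctrl to 9401 CPM at SDS D16, 6017 CPM at DXR D16 and 6000 CPM in RS (-1.87 ± 0.23, adjusted p = 4.28e-07). The other relative with that seed that was tested, miR-92b-3p from its own locus, was not called against Ctrl at SDS D16 (-0.75 ± 0.31), DXR D16 (-0.71) or RS (-0.18). Of the strands counted for the miR-106a-363 cluster alone, 4 were listed and 0 tested. Its hairpins include miR-19b-2 and miR-92a-2, and the part of that locus in the reads of miR-19b-3p and miR-92a-3p was not tested.

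Ratios of members to these relatives were next compared within libraries, and none of the late minus early differences passed after adjustment. The log2 ratio of miR-25-3p to miR-92a-3p was -5.63 ± 0.28 (SD, n = 6) early and -4.70 ± 0.47 late after SDS, a difference of 0.92 (exact permutation p = 0.00649, adjusted p = 0.0909). After DXR it was -5.10 ± 0.23 early and -4.41 ± 0.35 late, a difference of 0.68 (exact permutation p = 0.00649, adjusted p = 0.0909). For miR-93-5p over miR-17-5p the differences were 0.52 (exact permutation p = 0.013) and 0.48 (exact permutation p = 0.0476). Without either SDS D6 library 4 of the 28 ratios passed, and with D0 added to the early libraries 2 of the 28 ratios passed at an adjusted exact permutation p = 0.028. The Ctrl libraries, at -4.91 and -4.73 for miR-25-3p over miR-92a-3p, lay within the range of the late libraries after SDS, -5.47 to -4.06. After DXR both lay within the early range, -5.34 to -4.67, and 1 of them within the late range, -4.82 to -3.87.

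The same 14 ratios were compared between inducers over D1 to D16, 14 against 14 libraries, with the inducer permuted within day. Of these, 5 had an adjusted p below 0.05, all lower after SDS. The ratio of miR-25-3p to miR-92a-3p was 0.39 lower (exact permutation p = 0.000143, adjusted p = 0.002). Against miR-15b-5p, a cell cycle miRNA from an intron of the condensin gene SMC4, the 3 guides were lower by 0.68 for miR-106b-5p, 0.58 for miR-25-3p and 0.43 for miR-93-5p (adjusted exact permutation p = 0.0199, 0.0199 and 0.0437). miR-106b-5p over miR-17-5p was 0.46 lower (adjusted exact permutation p = 0.0492). With permutation within the replicate number as a block, miR-93-5p over miR-15b-5p was not called (adjusted exact permutation p = 0.0792). Of the 3 denominators, miR-92a-3p was 0.33 (adjusted p = 0.00492) and miR-15b-5p 0.52 (adjusted p = 0.000536) higher after SDS, while miR-17-5p (0.31, adjusted p = 0.0722) and the guides were not called. Each of the 28 libraries was left out in turn. The call of miR-106b-5p over miR-17-5p was lost without 18 of them and that of miR-93-5p over miR-15b-5p without 15. The other calls were each lost without 1 or 2. The number of ratios called was 0 without the second DXR D16 library and 2 without the first. It was 3 without any 1 of 11 other libraries, both of SDS D1 and DXR D6, the first of SDS D3, SDS D4 and DXR D1, and the second of SDS D2, SDS D6, SDS D8 and DXR D2, the ratios of miR-106b-5p to miR-17-5p and of miR-93-5p to miR-15b-5p being those lost.

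**Figure D5:**
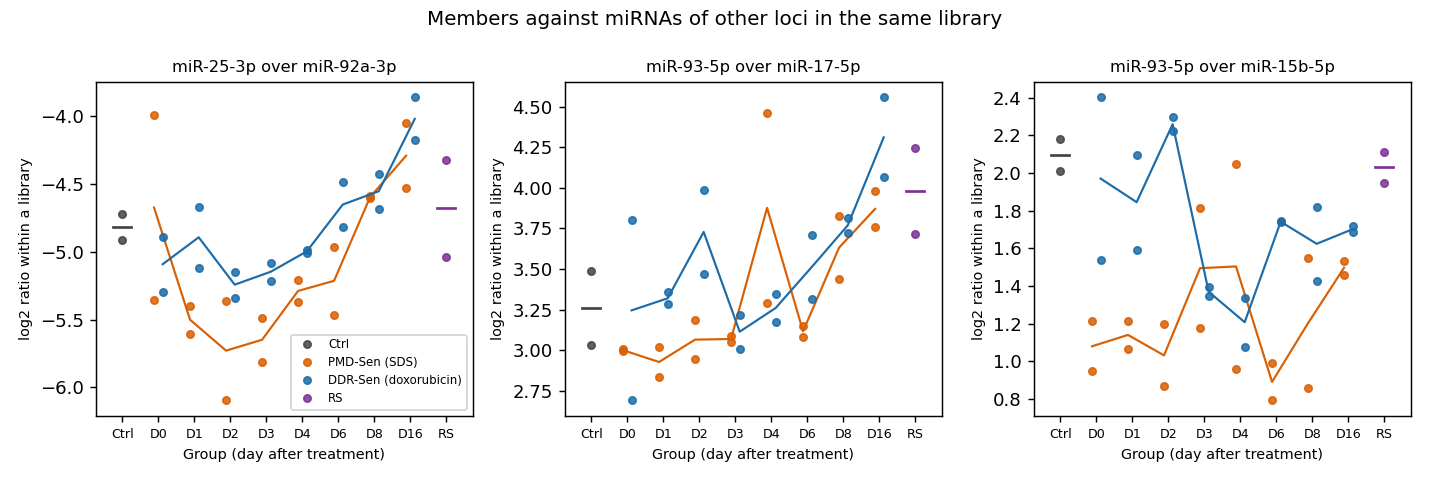
Log2 ratio of counts within a library (y) of miR-25-3p over miR-92a-3p, miR-93-5p over miR-17-5p and miR-93-5p over miR-15b-5p, by group (x). Points are single libraries and lines join or mark the mean of 2. The first ratio has early means of -5.63 after SDS and -5.10 after DXR and late means of -4.70 and -4.41.

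Of the miRNAs of the SMC4 intron, only 3 strands were tested. Of these, 0 were called lower at SDS D16 (7.78% of all tested miRNAs), 2 at DXR D16 (11.7%) and 2 in RS (12.2%). Their medians were -0.63, -0.88 and -2.09. The medians at SDS D16 and in RS were the values of miR-15b-3p, which was not called. It had few reads, with means of 17.9 CPM in Ctrl and 4.0 CPM in RS. miR-15b-5p had an RS log2 fold change of -1.90 ± 0.29 (adjusted p = 1.54e-05), beside -1.97 ± 0.16 for miR-93-5p. The ratio of miR-93-5p to miR-15b-5p was 2.01 and 2.18 in Ctrl and 1.95 and 2.11 in RS, and 1.46 and 1.53 at SDS D16.

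Across the 18 group means of log2 CPM, miR-93-5p followed miR-25-3p (Pearson r = 0.84), miR-106b-3p (r = 0.77) and miR-106b-5p (r = 0.75) more closely than its own passenger miR-93-3p (r = 0.44). The last value is limited by counting noise, since miR-93-3p had 2 to 58 counts in a library. It does not show that the strands of MIR93 moved apart. Among the 354 tested miRNAs outside the cluster, the pattern most like that of miR-93-5p was miR-20a-5p (r = 0.94), then miR-16-5p (r = 0.90) and miR-17-5p (r = 0.89), where the median over the 354 was -0.08. For miR-25-3p these were miR-130b-5p (r = 0.83), miR-20a-5p (r = 0.81) and miR-199b-5p (r = 0.80), and for miR-106b-5p miR-145-3p (r = 0.77), miR-16-2-3p (r = 0.76) and miR-143-3p (r = 0.75). Ranked by Spearman's rho, 2 of these 3 stayed among the leading 3 for miR-93-5p and 1 of 3 for each of the other guides. These values describe 18 groups that share libraries, depth and scaling.

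The libraries held the miRNAs of fibroblasts. The 5 mesenchymal markers (miR-199a-3p, miR-199a-5p, miR-214-3p, miR-143-3p and miR-145-5p) were read in every library and summed to 8644 to 30390 CPM, with 23050 to 23810 CPM in Ctrl, 17430 to 30390 at SDS D16, 13540 to 14800 at DXR D16 and 8644 to 16950 in RS. miR-199a-3p is joined in the table with its identical copy miR-199b-3p. Against Ctrl, 0 of the 5 were called lower at SDS D16 (7.78% of all tested miRNAs), 2 at DXR D16 (11.7%) and 2 in RS (12.2%). Late against early, 1 was lower after SDS (15.8%) and 4 after DXR (8.33%). None was called higher in these comparisons. Those lower at DXR D16 were miR-143-3p (-1.02 ± 0.37) and miR-145-5p (-1.05 ± 0.23). Epithelial markers summed to 14.6 to 163 CPM over 6 listed miRNAs, with miR-141-3p at 0 in 34 libraries and miR-205-5p at 0 in 33, whereas miR-200b-3p was at 0 in 1 and miR-200c-3p in 0, at 7.31 to 151 CPM. miR-200c-3p fell late against early after SDS (-1.97 ± 0.35, adjusted p = 0.000104) and was not called against Ctrl at SDS D16 (-1.47), DXR D16 (-0.84) or in RS (-0.15). Of 8 blood markers 6 were listed, and miR-451a was at 0 in 19 libraries and miR-223-3p in 32, but miR-486-5p rose by 1.32 ± 0.39 at DXR D16 and 1.96 ± 0.38 in RS (adjusted p = 0.0126 and 0.000304). At SDS D16 it was not called (0.54 ± 0.39, adjusted p = 0.329). The endothelial miR-126-3p rose as well, by 1.56 ± 0.42 at SDS D16, 1.64 ± 0.42 at DXR D16 and 1.85 ± 0.42 in RS (adjusted p = 0.00994, 0.00481 and 0.00111). The part of these miRNAs in the members' values was not tested.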

How the data were processed

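Small RNA libraries were made by the authors from 100 ng of total RNA with 17 PCR cycles and sequenced from WI-38 cells, 36 libraries in 18 groups of 2. The deposited values are expected counts of mature miRNAs, which the authors obtained with the exceRpt pipeline on GRCh38 and miRBase and did not normalise. Estimated counts need not be whole (1003 of 54288 values were not, though all values of the 6 members were) and were rounded. Groups were taken from the sample labels, and 0 columns could not be mapped. Libraries held 81668 to 1933435 counts, which limits members of few counts.

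edgeR 4.0.16 in R 4.3.3 was used with TMM scaling and filterByExpr, which kept 360 of 1508 miRNAs, and a quasi-likelihood fit of the 18 group means (18 residual degrees of freedom). Called means a Benjamini-Hochberg adjusted p below 0.05. Ratios of miRNAs were tested with exact permutation tests in Python 3.11.15 with a pseudocount of 0.5 on each count. CPM for correlations used a prior count of 2. On simulated data for RS minus Ctrl, 177 of 187 changed miRNAs and 2 of 147 unchanged ones were called. The changes put in were of 2 on the log2 scale, with the same spread between libraries (dispersion) for every miRNA. These shares therefore do not apply to smaller changes or to a wider spread between libraries than was put in. Alternatives were other scalings, filters, the DESeq2 1.42.0 Wald test, the study's thresholds, a replicate block, thinning and leaving out each library.

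The members, relatives (by cluster, seed and the SMC4 intron), marker lists and the rule for likeness (the 3 miRNAs of highest Pearson r over the 18 groups) were chosen with earlier results of these data known. miR-92b-3p was named as the tested relative of its list. No library was dropped. As a check for a library deposited again, the 2 of a group were compared, and in all 18 groups they differed by more than counting noise, so each counted as 1 sample.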

Additional observations from a re-analysis of the deposited data

How the results depend on the processing

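Of the 102 comparisons of a member in a group with Ctrl, 25 were called lower, 26 with the replicate block, and 17 to 37 under the other planned settings. Leaving out 1 library gave 15 to 31, and the 2 Ctrl libraries gave the lowest values. Same-numbered libraries did not deviate together throughout (correlations of -0.46 to 0.37 over 153 pairs of groups, median 0.04), so the number is not taken as a pairing. The correlation was above 0.1 in 53 of the 153, so a pairing of some groups is not excluded. With the replicate block, ratios called between inducers went from 5 to 4 (miR-93-5p over miR-15b-5p was lost), late against early SDS from 3 to 2, and the other counts of calls stayed as they were. Median shifts of all miRNAs under other scalings were -0.27 to 0.17 with total counts and -0.12 to 0.04 with DESeq2 size factors.

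The calls at DXR D16 (3 to 4 members) and in RS (4 to 5) held under each setting. For SDS D16 against RS the 3 calls became 0 with only the libraries of the comparison and 1 to 3 without 1 library, and for DXR D16 against RS the 1 call became 0 with that setting or with every miRNA with a count tested and 0 to 2 without 1 library. Leaving out libraries in the comparisons with RS, and for each single member called against Ctrl, was chosen after seeing the data, as the RS libraries differed from each other. At SDS D16 the 1 call became 4 with DESeq2 size factors, total counts, DESeq2's Wald test or only the libraries of the comparison, 3 with a mean of at least 10 counts, and 1 to 2 without 1 library. With the study thresholds miR-93-5p was lost there and miR-25-5p passed. For late against early SDS the 3 calls became 1 with the study thresholds, 0 with every miRNA with a count tested, 0 with only the libraries of the comparison and 0 to 2 without 1 library. For DXR both calls, miR-93-5p and miR-106b-3p, were lost with the study thresholds, while 1 other member, miR-25-5p (-1.18), passed them. Between inducers 0 became 2 with total counts, and for the difference in course 0 became 1 with DESeq2's Wald test and 0 to 1 without 1 library. Ratios late against early went from 0 to 2 with early D0 to D3 and 0 to 4 without 1 library, and between inducers the 5 became 0 to 6 without 1 library. The cause of these changes was not tested.

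Values near 0 changed sign, and none of these was called. With every miRNA with a count tested, miR-106b-5p at SDS D16 was 0.0044 and miR-25-3p late minus early SDS 0.0011. Between inducers, miR-106b-5p was 0.0429 with total counts and 0.0533 when thinned to the smallest total, and miR-25-3p 0.1038 and 0.0413. The difference in course of miR-25-5p was -0.0598 with total counts. With early D0 to D3 the SDS ratios were 0.0117 for miR-93-5p over miR-25-3p, 0.0102 for miR-93-5p over miR-15b-5p and -0.0015 for miR-25-3p over miR-15b-5p. Without 1 library, miR-106b-5p at SDS D16 was -0.4252 to 0.1709. miR-93-3p was -0.3146 to 0.0497 late minus early SDS, -0.2122 to 0.4508 late minus early DXR, -0.0384 to 0.2457 between inducers and -0.6043 to 0.0587 for the difference in course, which for miR-25-5p was -0.644 to 0.3666. The ratio miR-93-3p over miR-93-5p was -0.121 to 0.2205 late minus early SDS and -0.0474 to 0.1506 between inducers, miR-93-5p over miR-15b-5p -0.0965 to 0.0928 late minus early SDS, and miR-106b-5p over miR-25-3p -0.1817 to 0.058 between inducers. Late minus early DXR, miR-106b-5p over miR-15b-5p was -0.2269 to 0.0757, over miR-93-5p -0.0859 to 0.2372, and miR-106b-3p over miR-106b-5p -0.5487 to 0.0046.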
